A study of Mus musculus with 40 samples.

Results

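The genes described here carry out MHC class I antigen presentation, the display of peptides from inside a cell on its surface. They are 10 genes chosen by name out of the 55359 gene identifiers counted: the class I heavy chains H2-K1 and H2-D1, the light chain B2m (beta-2 microglobulin), the peptide transporter genes Tap1 and Tap2, the peptide-loading factor Tapbp (tapasin), the immunoproteasome subunits Psmb8, Psmb9 and Psmb10, and the transactivator Nlrc5. 7 of them lie on chromosome 17, B2m on chromosome 2, and Psmb10 and Nlrc5 on chromosome 8. All 10 passed the filter on low counts. They were measured by bulk RNA sequencing of right kidneys from male C57BL/6 mice, at a depth of 15278423 to 25575317 gene counts per library. Mice received sesame oil vehicle or TCDD (2,3,7,8-tetrachlorodibenzo-p-dioxin) by 7 gavages at 4-day intervals. The labels give a start age of 30 days, an end age of 58 days and a time point of 28 days. The 8 groups had 5 mice and 5 libraries each, at 0, 0.03, 0.1, 0.3, 1, 3, 10 and 30 µg/kg. The mice carried no engineered allele in the labels, and each value is a mean over all cell types of the tissue piece.

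In the class I pathway, proteasomes cut cytosolic proteins into peptides, and the immune subunits replace their constitutive counterparts and change which peptides are made. The Tap1-Tap2 transporter moves peptides into the endoplasmic reticulum, where tapasin helps load them onto a heavy chain paired with beta-2 microglobulin, and the complex travels to the surface for inspection by CD8 T cells and natural killer cells. Interferons raise most of these genes through interferon regulatory factors such as IRF1, and Nlrc5 acts at class I promoters through a conserved block of sites. TCDD activates the aryl hydrocarbon receptor and is cleared slowly, and Cyp1a1 is the best-known target gene of that receptor.

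The sequences before the start sites are shown for the 2 heavy chains and the light chain because these were the most abundant of the 10 transcripts and their windows shared 4 of the motifs searched, and for Tap1 because its window also covers most of the window of the neighbouring Psmb9. Each is the 250 bases before an annotated start (RefSeq, GRCm38.p6), read 5′ to 3′ on the strand of the gene. Capitals mark, on either strand, matches to an interferon regulatory factor element (AANNGAAA), the core of a cyclic AMP response element (TGACG), a dioxin response element (TNGCGTG), a box of the letters CCAAT, and a kappaB-like site. The kappaB-like site was searched as a run of guanines of length 3, any 2 bases, a pair of thymines, any base and a pair of cytosines. The windows are chr17:34000334-34000583 on the minus strand for H2-K1, chr17:35262844-35263093 on the plus strand for H2-D1, chr2:122147437-122147686 on the plus strand for B2m and chr17:34187306-34187555 on the plus strand for Tap1.
H2-K1: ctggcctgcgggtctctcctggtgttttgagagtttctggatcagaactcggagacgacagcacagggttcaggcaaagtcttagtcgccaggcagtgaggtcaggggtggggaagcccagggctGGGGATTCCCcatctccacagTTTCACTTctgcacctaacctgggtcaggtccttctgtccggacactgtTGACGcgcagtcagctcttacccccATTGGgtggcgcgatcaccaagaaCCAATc
H2-D1: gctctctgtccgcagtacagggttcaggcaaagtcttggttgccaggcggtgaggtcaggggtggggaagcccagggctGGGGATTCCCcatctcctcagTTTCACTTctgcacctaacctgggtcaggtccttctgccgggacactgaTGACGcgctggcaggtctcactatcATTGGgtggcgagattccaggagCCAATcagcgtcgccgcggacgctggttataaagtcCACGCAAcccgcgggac
B2m: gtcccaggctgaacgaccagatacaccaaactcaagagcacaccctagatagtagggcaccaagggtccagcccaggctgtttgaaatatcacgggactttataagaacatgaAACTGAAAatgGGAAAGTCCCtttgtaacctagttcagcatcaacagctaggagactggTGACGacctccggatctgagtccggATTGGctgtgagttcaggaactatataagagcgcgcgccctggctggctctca
Tap1: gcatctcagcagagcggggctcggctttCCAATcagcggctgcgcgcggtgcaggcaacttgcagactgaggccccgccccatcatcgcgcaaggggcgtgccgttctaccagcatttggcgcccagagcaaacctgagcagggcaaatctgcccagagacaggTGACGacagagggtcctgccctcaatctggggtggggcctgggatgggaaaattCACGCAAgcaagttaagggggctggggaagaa
In H2-K1, H2-D1 and B2m the 3 windows held a kappaB-like match beside an interferon regulatory factor match, then a cyclic AMP response core, then a CCAAT box on the opposite strand.

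The H2-K1 and H2-D1 windows were 88.7% identical over 203 aligned bases. H2-K1 has a further annotated start 14 bases away, and the window of the more downstream start is the one shown. Among all 32851 promoter windows of the same length, 21.3% held the interferon regulatory factor letters, 4.11% the kappaB-like letters, 17.8% the cyclic AMP response core, 33.8% a CCAAT box and 4.1% the dioxin response element letters. Of the 8 members with an entry, 3 held the interferon regulatory factor letters and 3 the kappaB-like letters, in both cases H2-K1, H2-D1 and B2m. The cyclic AMP response core was in 5 of 8 (those 3, Tap1 and Psmb9) and a CCAAT box in 6 of 8 (those 5 and Tapbp). The dioxin response element letters were in H2-D1, Tap1 and Psmb9, and the Tap1 and Psmb9 windows share 225 bases on opposite strands, so the matches of this pair are the same sites. Matches of different motifs did not overlap in the members' windows (0 overlaps). A match describes letters and not a bound site.

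In vehicle kidneys the 10 transcripts spanned a wide range of levels. Per kilobase of exon, B2m was highest at 249 ± 28.8 CPM per kilobase (SD, n = 5; CPM are counts scaled to a common library size), followed by H2-D1 at 87.7 ± 6.53, H2-K1 at 74.6 ± 4.96, Tapbp at 22.3 ± 2.38 and Psmb10 at 7.52 ± 0.840 CPM per kilobase. The transporter genes followed at 2.51 ± 0.467 for Tap2 and 2.26 ± 0.145 for Tap1, and then Psmb9 at 1.27 (1.05 to 1.36 in single libraries), Psmb8 at 1.10 ± 0.173 and Nlrc5 at 0.550 ± 0.0488 CPM per kilobase. The libraries of neighbours in this order overlapped for Tap1 with Tap2 and for Psmb8 with Psmb9. H2-K1 (66.5 to 80.0) and H2-D1 (80.2 to 94.9) met almost edge to edge. The length used was that of all annotated exons of a gene together, with bases shared with other genes included. Close ranks between genes are therefore uncertain. At 10 µg/kg the per-kilobase levels were 691 for B2m (467 to 853 in single libraries), 192 ± 35.1 for H2-K1, 186 ± 26.7 for H2-D1 and 1.79 ± 0.415 for Nlrc5, and the heavy chains then overlapped.

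**Figure D1:**
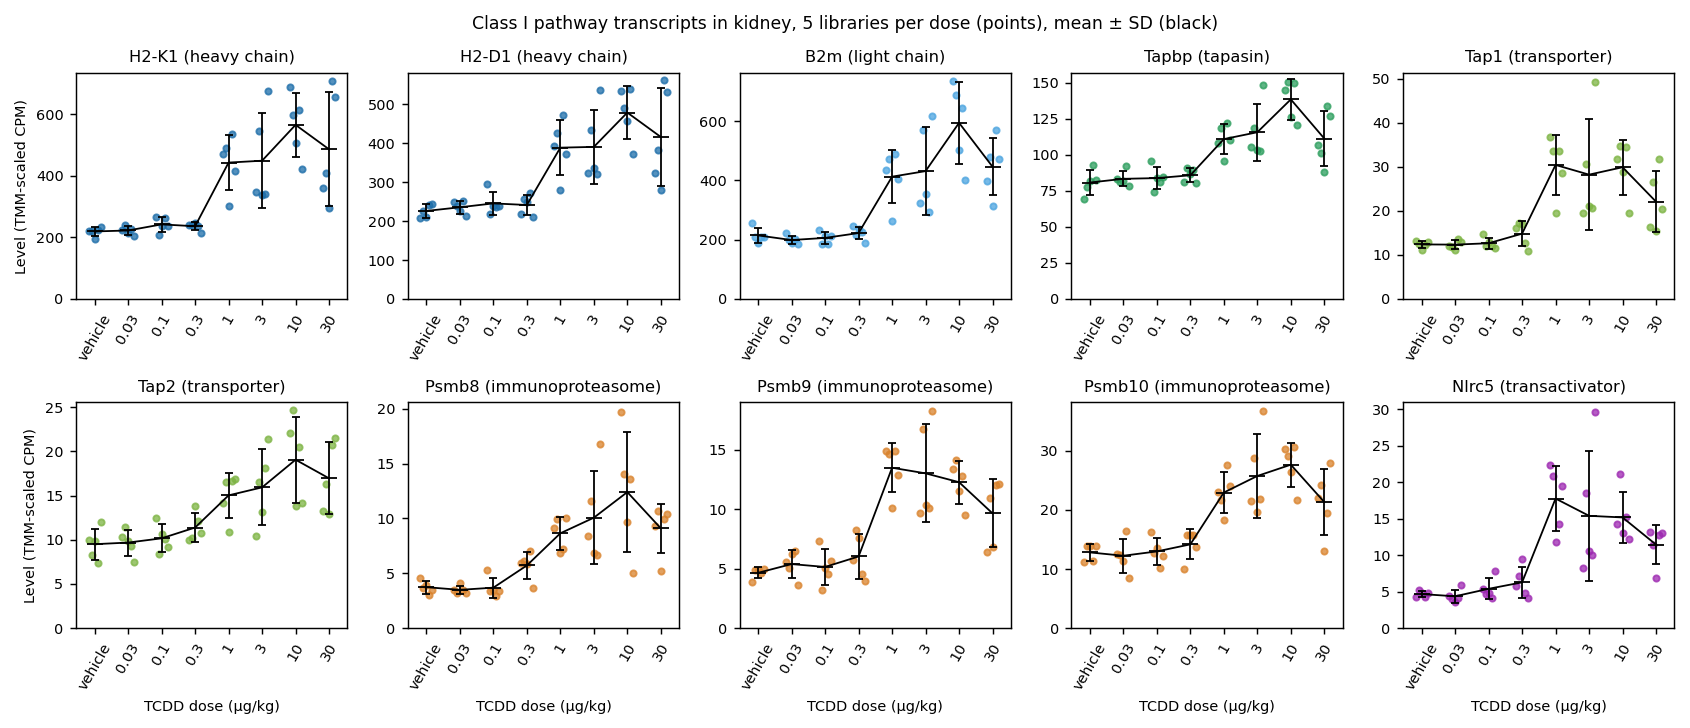
Level of each of the 10 transcripts (TMM-scaled CPM, linear axes from 0) against TCDD dose, with 1 point per library and the mean ± SD of 5 libraries in black. All 10 overlap the vehicle libraries up to 0.3 µg/kg and have higher means from 1 µg/kg on, with a wide spread at 3 µg/kg, where replicate 5 was the highest library for all 10.

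The main observation was a step in most of the class I genes between 0.3 and 1 µg/kg. At 0.03, 0.1 and 0.3 µg/kg no member passed the test against vehicle (0 of 10 called at each dose by edgeR, using its quasi-likelihood test with p adjusted over all genes by Benjamini-Hochberg at a threshold of 0.05; DESeq2 called 0 too). The share of all 17345 genes called at these doses was 0%, 0% and 0.00577%. At an unadjusted p under 0.05 the counts of members were 0, 0 and 1. The 1 member was Psmb8 at 0.3 µg/kg, with a log2 fold change of 0.60 ± 0.26 (SE). At that dose all 10 members had higher values than vehicle without passing, where 52.1% of all genes were higher. At 1 µg/kg 9 of the 10 rose, against 0.507% of all genes called higher, and at 3, 10 and 30 µg/kg all 10 rose, against 1.03%, 3.82% and 8.39%. With only the 2 groups compared in the fit, 4 of the 10 missed the threshold at 3 µg/kg, namely H2-K1 (edgeR adjusted p = 0.0849), B2m (0.124), Tap1 (0.0642) and Tap2 (0.0639). All 5 libraries were above all 5 of vehicle for 9 members at 1 µg/kg (1.19% of all genes), 9 at 3 (1.67%), 10 at 10 (4.32%) and 8 at 30 µg/kg (3.59%). The members' median log2 fold change was 0.20 for 0.3 µg/kg, then 0.98, 1.02, 1.32 and 0.97 for the doses from 1 to 30 µg/kg, while the median of all genes tested stayed between -0.01 and 0.01 at the 4 doses from 1 to 30 µg/kg.

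Nlrc5, the transactivator of class I genes, had the largest fold change of the members at 1 µg/kg. Its 5 vehicle libraries held 4.21, 5.17, 4.84, 4.27 and 4.87 CPM, and those at 0.3 µg/kg held 5.82, 7.10, 9.53, 4.76 and 4.17 CPM. At 1 µg/kg the libraries held 22.3, 20.9, 11.8, 14.3 and 19.4 CPM. The vehicle and 1 µg/kg libraries did not overlap, and the 0.3 µg/kg libraries reached from just below the lowest vehicle library to above the highest. The log2 fold change against vehicle was 1.92 ± 0.27 at 1 µg/kg (edgeR adjusted p = 3.52e-05), 1.72 ± 0.27 at 3 (adjusted p = 0.000126), 1.70 ± 0.27 at 10 (adjusted p = 2.95e-05) and 1.29 ± 0.27 at 30 µg/kg (adjusted p = 0.000617). From 1 µg/kg on, all 5 libraries of each dose were above all 5 of vehicle.

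The heavy chains H2-K1 and H2-D1, which hold the peptide, rose 2.02-fold and 1.72-fold at 1 µg/kg. H2-K1 stood at 221, 220, 195, 225 and 235 CPM in vehicle and, at 1 µg/kg, at 470, 491, 302, 536 and 414 CPM. At 10 µg/kg it stood at 688, 598, 506, 613 and 422 CPM, and at 30 µg/kg at 361, 410, 294, 707 and 657 CPM. None of these dosed libraries overlapped vehicle, and at 30 µg/kg replicates 4 and 5 were well above the other 3. The log2 fold change of H2-K1 was 1.01 ± 0.19 at 1 µg/kg (edgeR adjusted p = 0.00391), 1.37 ± 0.20 at 10 (adjusted p = 1.05e-05) and 1.15 ± 0.19 at 30 µg/kg (adjusted p = 6.99e-05). For H2-D1 it was 0.78 ± 0.16 at 1 µg/kg (adjusted p = 0.00585), 1.08 ± 0.16 at 10 (adjusted p = 1.2e-05) and 0.88 ± 0.16 at 30 µg/kg (adjusted p = 0.000125). H2-D1 rose from 226 ± 16.9 CPM in vehicle to 389 ± 71.4 at 1 µg/kg and 479 ± 68.9 at 10 µg/kg (SD, n = 5).

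B2m, the shared light chain, reached the highest level of the 10. Its libraries held 256, 210, 189, 210 and 208 CPM in vehicle, then 434, 473, 262, 488 and 405 CPM at 1 µg/kg and 734, 689, 501, 644 and 401 CPM at 10 µg/kg. The lowest 1 µg/kg library, replicate 3, was just above the highest vehicle library, and at 10 µg/kg replicates 3 and 5 were below the others. The log2 fold change was 0.94 ± 0.18 at 1 µg/kg (edgeR adjusted p = 0.00433), 1.47 ± 0.18 at 10 (adjusted p = 1.23e-06) and 1.06 ± 0.18 at 30 µg/kg (adjusted p = 9.33e-05). Within a library, the 2 heavy chains together gave 209 counts per 100 counts of B2m in vehicle, 203 at 1 µg/kg, 178 at 10 and 197 at 30 µg/kg. With all libraries this ratio passed no test at any of the 7 doses. Its lowest two-sided exact permutation p was 0.0476, at 0.1 µg/kg (237 counts per 100, adjusted p = 0.0952 over 28 ratio tests), and at 10 µg/kg the difference of -0.23 ± 0.10 (SE, log2) had an exact p of 0.0556 (adjusted p = 0.104). Each passed with 1 vehicle library left out: the difference was 0.221 at 0.1 µg/kg without replicate 5 (exact permutation test, adjusted p = 0.0171) and -0.308 at 10 µg/kg without replicate 1 (adjusted p = 0.0342).

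Of the transporter genes, Tap1 rose from 1 µg/kg on and Tap2 from 3 µg/kg on. Tap1 held 13.1, 12.6, 11.1, 12.2 and 13.0 CPM in vehicle, and the 1 µg/kg libraries 36.8, 33.7, 19.5, 33.6 and 28.6 CPM, without overlap. Its log2 fold change was 1.30 ± 0.21 at 1 µg/kg (edgeR adjusted p = 0.000385), 1.27 ± 0.21 at 10 (adjusted p = 7.42e-05) and 0.84 ± 0.21 at 30 µg/kg (adjusted p = 0.00472). Tap2 held 9.97, 8.26, 9.85, 7.43 and 12.0 CPM in vehicle, and the 1 µg/kg libraries 14.2, 16.5, 10.9, 16.7 and 16.9 CPM. Replicate 3 of that dose lay inside the vehicle range, and Tap2 was the member that missed the threshold at 1 µg/kg (log2 fold change 0.66 ± 0.18, adjusted p = 0.088). Without that library its log2 fold change was 0.75 (adjusted p = 0.0297), and without vehicle replicate 5 it was 0.76 (adjusted p = 0.0414). Tap2 rose by 0.75 ± 0.18 at 3 µg/kg (adjusted p = 0.0172), a call lost when vehicle replicate 2 or 4, or replicate 4 or 5 at 3 µg/kg, was left out (adjusted p from 0.0506 to 0.134), and by 1.00 ± 0.18 at 10 µg/kg (adjusted p = 9.16e-05). The difference between the responses of Tap1 and Tap2 was not tested.

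Tapbp, which bridges the transporter and the heavy chain, had the smallest fold changes and the smallest errors. It held 69.2, 77.6, 81.9, 93.0 and 82.3 CPM in vehicle, then 108, 119, 95.8, 122 and 110 CPM at 1 µg/kg and 145, 151, 126, 150 and 121 CPM at 10 µg/kg. The libraries of these 2 doses lay above all vehicle libraries. The log2 fold change was 0.46 ± 0.10 at 1 µg/kg (edgeR adjusted p = 0.00629), 0.78 ± 0.10 at 10 (adjusted p = 1.44e-07) and 0.46 ± 0.10 at 30 µg/kg (adjusted p = 0.000468). At 30 µg/kg 4 of 5 libraries exceeded all of vehicle. Of the exon bases of Tapbp, 29.0% are shared with other genes, mostly a transcript on the opposite strand, and the counts do not tell strands apart. The shares for Tap2 and Psmb8 were 18.5% and 14.7%, and Tap1 and Psmb9 share 212 bases.

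All 3 immunoproteasome subunits rose from 1 µg/kg on, and each rose relative to the constitutive subunit that it replaces. Psmb9 held 3.86, 4.86, 4.88, 4.67 and 4.99 CPM in vehicle, and the 1 µg/kg libraries 14.9, 14.7, 10.1, 14.9 and 12.9 CPM. Psmb8 held 4.61, 3.70, 3.89, 3.02 and 3.46 CPM in vehicle, then 9.14, 9.96, 6.89, 7.20 and 10.0 CPM at 1 µg/kg and 19.7, 14.0, 9.63, 13.6 and 5.01 CPM at 10 µg/kg. Psmb10 held 11.1, 13.8, 13.9, 11.4 and 13.9 CPM in vehicle, and the 1 µg/kg libraries 23.1, 21.7, 18.2, 27.6 and 24.1 CPM. In all 3 the 1 µg/kg libraries were above vehicle, and Psmb8 at 10 µg/kg spread from close to vehicle in replicate 5 to 19.7 CPM in replicate 1. The log2 fold changes at 1, 10 and 30 µg/kg were 1.53 ± 0.21, 1.40 ± 0.21 and 1.06 ± 0.21 for Psmb9, 1.21 ± 0.25, 1.73 ± 0.25 and 1.29 ± 0.25 for Psmb8, and 0.84 ± 0.17, 1.11 ± 0.17 and 0.74 ± 0.17 for Psmb10. All 9 were called (edgeR adjusted p from 4.2e-06 to 0.00629).

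Psmb5, Psmb6 and Psmb7 are the constitutive subunits that Psmb8, Psmb9 and Psmb10 replace. Over the 7 doses 1 difference was called, that of Psmb7 at 10 µg/kg, which fell by 0.30 ± 0.08 on the log2 scale (edgeR adjusted p = 0.0219; 0.997% of all genes were lower at this dose). That call was lost in each of the 2 stranded count columns and without any one of several libraries (adjusted p from 0.0508 to 0.509). As counts per 100 counts of the partner, Psmb8 to Psmb5 went from 7.68 in vehicle to 16.2, 18.5, 23.3 and 21.1 over the 4 doses from 1 to 30 µg/kg. Psmb9 to Psmb6 went from 4.50 to 12.9, 12.9, 12.8 and 9.34 over the same doses, and Psmb10 to Psmb7 from 23.8 to 45.3, 49.5, 63.1 and 45.0. Library size and scaling cancel in such a ratio. For each of these 3 ratios at each of these 4 doses all 5 libraries were above all 5 of vehicle, which gives the smallest two-sided exact permutation p that 5 against 5 allow (0.00794, adjusted p = 0.0185 over 28 tests). Leaving out vehicle replicate 1, 3 or 4 took the adjusted p of Psmb9 to Psmb6 at 30 µg/kg to 0.0556. At 0.3 µg/kg Psmb8 to Psmb5 was 11.0 (exact p = 0.0397, adjusted p = 0.0855). At 0.03 µg/kg Psmb9 to Psmb6 was 5.33 (exact p = 0.151, adjusted p = 0.248) and passed only without replicate 5 of that dose (adjusted p = 0.0171).

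**Figure D2:**
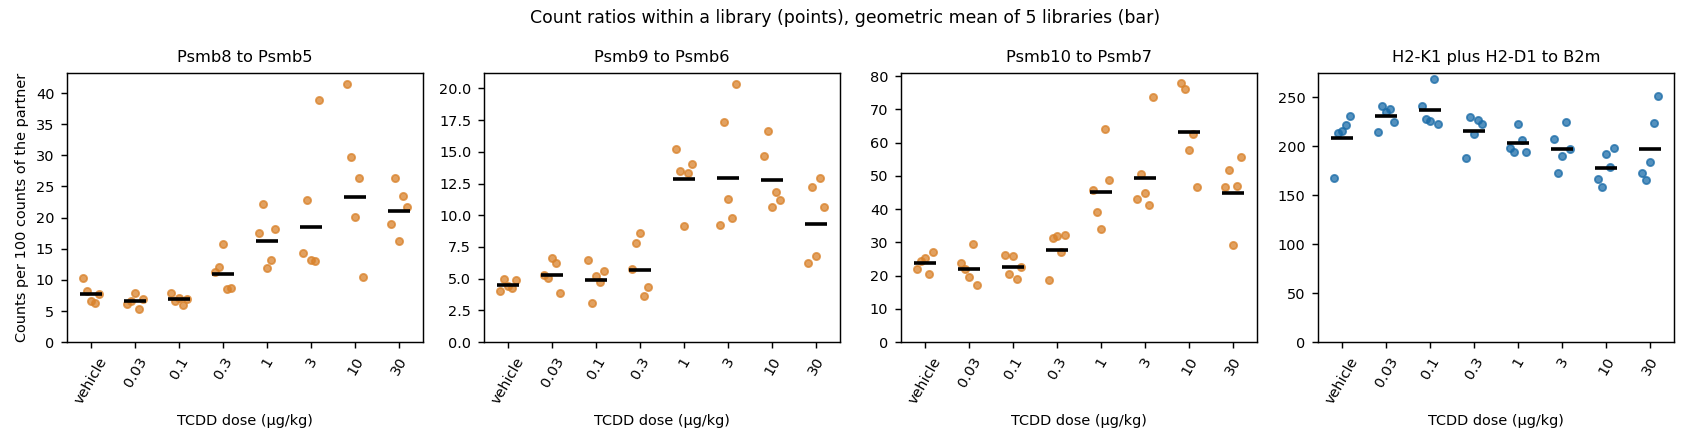
Counts per 100 counts of the partner gene against TCDD dose for the 3 immune to constitutive proteasome pairs (orange) and for both heavy chains to B2m (blue), with 1 point per library and the geometric mean of 5 libraries as a bar, on linear axes from 0. The 3 proteasome ratios sit above all vehicle libraries at 1, 3, 10 and 30 µg/kg, whereas the heavy chain to B2m ratio overlaps vehicle at every dose.

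Comparing neighbouring doses places the change without using vehicle. From 0.3 to 1 µg/kg 6 of 10 members rose, against 0.213% of all genes (37 genes, all higher; 10 without replicate 4 or 5 at 0.3 µg/kg, 15 without replicate 4 at 1 µg/kg, and 19 to 24 without replicate 1 at 0.3 µg/kg or replicate 1, 2 or 5 at 1 µg/kg). These were Nlrc5 by 1.50 ± 0.26 (edgeR adjusted p = 0.00612), Psmb9 by 1.16 ± 0.21 (adjusted p = 0.00612), Tap1 by 1.04 ± 0.21 (adjusted p = 0.015), H2-K1 by 0.91 ± 0.19 (adjusted p = 0.0306), B2m by 0.89 ± 0.18 (adjusted p = 0.0197) and H2-D1 by 0.69 ± 0.16 (adjusted p = 0.0494), all on the log2 scale. The other 4 were higher by 0.37 (Tapbp) to 0.69 (Psmb10) without passing. The count depended on single libraries: it was 2 without replicate 4 or 5 at 0.3 µg/kg or without replicate 1, 2 or 4 at 1 µg/kg, and 3 without replicate 2 at 0.3 µg/kg. From 1 to 3 µg/kg 0 of 10 passed (0.0115% of all genes; 0 members at an unadjusted p under 0.05; 0 with DESeq2), with log2 differences from -0.20 to 0.23. From 3 to 10 µg/kg 0 of 10 passed, against 0.11% of all genes (2 members at an unadjusted p under 0.05 and 0 with DESeq2). Values were higher for 8 of 10 members and for 50.3% of all genes. The steps from 0.03 to 0.1 and from 0.1 to 0.3 µg/kg also gave 0 of 10, against 0% and 0.00577% of all genes. At an unadjusted p under 0.05 they gave 0 and 1 members, and with DESeq2 0 in both. The 1 member was Psmb8, which rose by 0.63 ± 0.26 from 0.1 to 0.3 µg/kg and by 0.60 ± 0.25 from 0.3 to 1 µg/kg.

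From 10 to 30 µg/kg all 10 members had lower values, by -0.17 (Tap2) to -0.44 (Psmb8) with a median of -0.36. Of all genes 50.3% were higher at this step. The members varied together among mice, so their signs are not separate observations. With edgeR 0 of 10 passed, against 2.7% of all genes (4 members at an unadjusted p under 0.05). Tapbp came closest, at -0.31 ± 0.10 (adjusted p = 0.0615), and was the 1 member called with DESeq2. Cyp1a1, given here as a check of exposure, had 2.37 ± 1.25 CPM in vehicle, 24.7 ± 6.37 at 0.3 µg/kg, 99.4 ± 12.1 at 1 µg/kg, 1569 ± 147 at 10 µg/kg and 2537 ± 436 at 30 µg/kg (SD, n = 5). From 10 to 30 µg/kg its log2 difference was 0.69 ± 0.20 (edgeR adjusted p = 0.0492; a call lost, at 0.0538 to 0.154, without any 1 of 9 of the 10 libraries). Across the dose rank from 0 to 7, all 10 members were called with a rising slope (edgeR adjusted p under 0.05), against 11% of all genes called so. The slopes ran from 0.11 per rank for Tapbp to 0.30 per rank for Nlrc5 on the log2 scale.

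**Figure D3:**
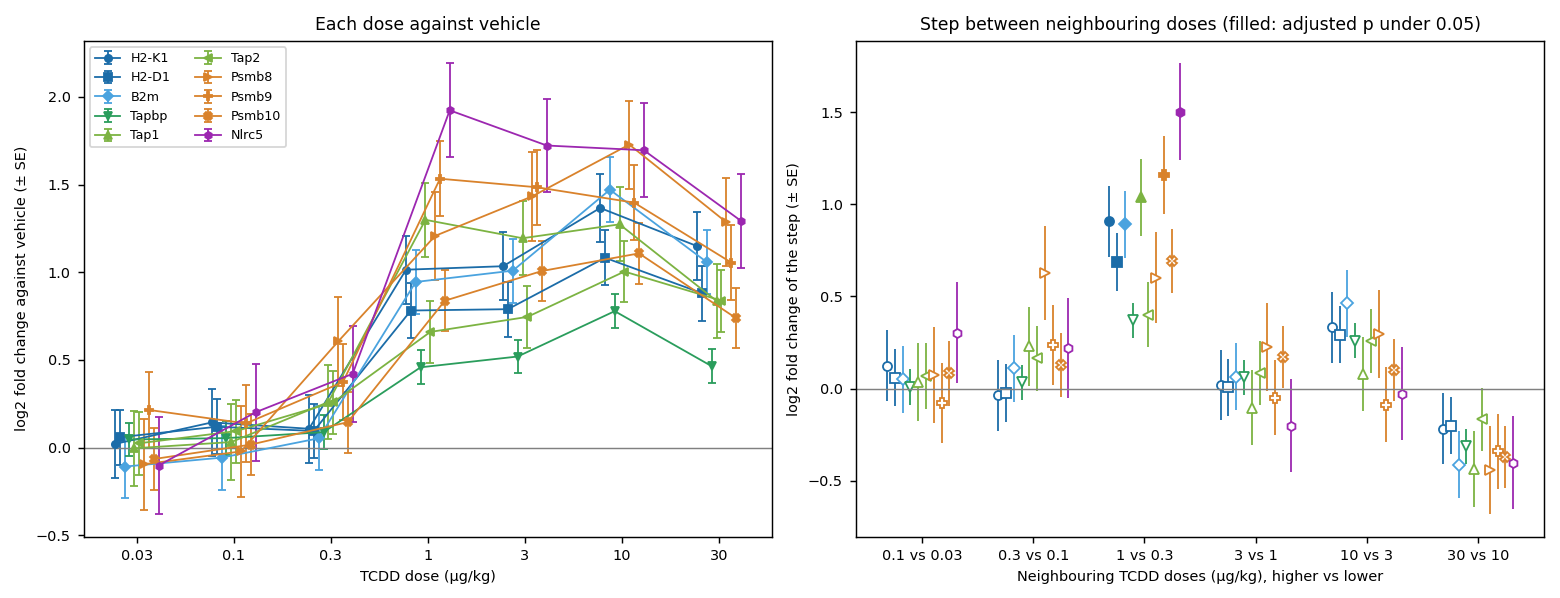
Left, log2 fold change against vehicle (± SE) of each member at the 7 doses; right, log2 fold change between neighbouring doses (± SE), filled where the edgeR adjusted p was under 0.05. The 7 comparisons on the left share the vehicle libraries; on the right the 6 filled symbols all lie at 1 against 0.3 µg/kg, and all 10 values at 30 against 10 µg/kg lie below 0.

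The 5 mice of a dose differed from one another, and they did so in most members at once. At 1 µg/kg replicate 3 was the lowest library for 10 of 10 members. The libraries of 3 µg/kg were highest in replicate 5 for 10 of 10, with 29.6 CPM of Nlrc5 and 49.3 CPM of Tap1 against 8.22 to 18.6 and 19.5 to 30.6 CPM in the other 4 libraries. At 10 µg/kg the lowest library was replicate 5, and at 30 µg/kg it was replicate 3, each for 9 of 10. The summed CPM of 5 genes that leukocytes have in common (Ptprc, Coro1a, Laptm5, Itgb2 and Cd53) was also lowest of its group in these low libraries, at 40.0, 64.9 and 39.6 CPM, and in replicate 5 at 3 µg/kg it was 62.3 CPM, next to the highest. At 0.1 µg/kg replicate 1 was highest for 9 of 10 members and had the highest leukocyte sum of its group (43.6 CPM). At 0.3 µg/kg replicate 5 was lowest for 8 of 10 and had the lowest sum (33.1 CPM). Some libraries did not pair in this way. At 0.03 µg/kg replicate 5 was lowest for 8 of 10 members with a leukocyte sum that ranked 3 of 5 (38.8 CPM). At 30 µg/kg replicate 4 was highest for 5 of 10 with a sum that ranked 4 (54.9 CPM). In that group replicate 2, with the highest sum (77.0 CPM), was highest for 1. The part of leukocyte content in the variation of the class I genes was not tested.

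Pooled over the 8 dose groups, variation of Nlrc5 among mice of one dose was related to that of the other 9 members. This was not particular to Nlrc5, and the pattern was not seen in every group. At 0.03 µg/kg replicate 5 was highest of its group for Nlrc5 (0.448 above the group mean of log2 CPM). The same library was lowest for 8 of the other 9, with Psmb9 at -0.542 from its mean. The relation within single dose groups was not tested. With each dose group's mean of log2 CPM removed, Pearson's r of a member with the mean of the other 9 was lowest for Nlrc5, at 0.684. It was highest for H2-D1, at 0.915. Over 40 libraries, with each group's mean of log2 CPM removed, Pearson's r with Nlrc5 was 0.722 for Tap1 (Spearman's rho 0.653), 0.679 for B2m (rho 0.586), 0.608 for H2-K1 (rho 0.522), 0.601 for Psmb9 (rho 0.609), 0.596 for Tapbp (rho 0.547), 0.583 for Psmb8 (rho 0.561), 0.561 for H2-D1 (rho 0.501), 0.492 for Psmb10 (rho 0.457) and 0.470 for Tap2 (rho 0.432). The largest adjusted p of the 9 relations was 0.0108 for r (Tap2, raw p = 0.0108) and 0.0137 for rho, and the smallest was 0.00081 for r (Tap1, raw p = 9e-05) (two-sided, permutations within dose groups, Benjamini-Hochberg). Without the 2 libraries farthest from the median of Nlrc5, replicates 5 and 1 at 3 µg/kg, r ran from 0.316 for Tap2 to 0.608 for Tap1. The titles number the libraries in 2 runs, and r ran from 0.548 to 0.775 over the 23 libraries titled 1 to 27 and from 0.195 (Tap2) to 0.697 (B2m) over the 17 titled 28 to 53.

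**Figure D4:**
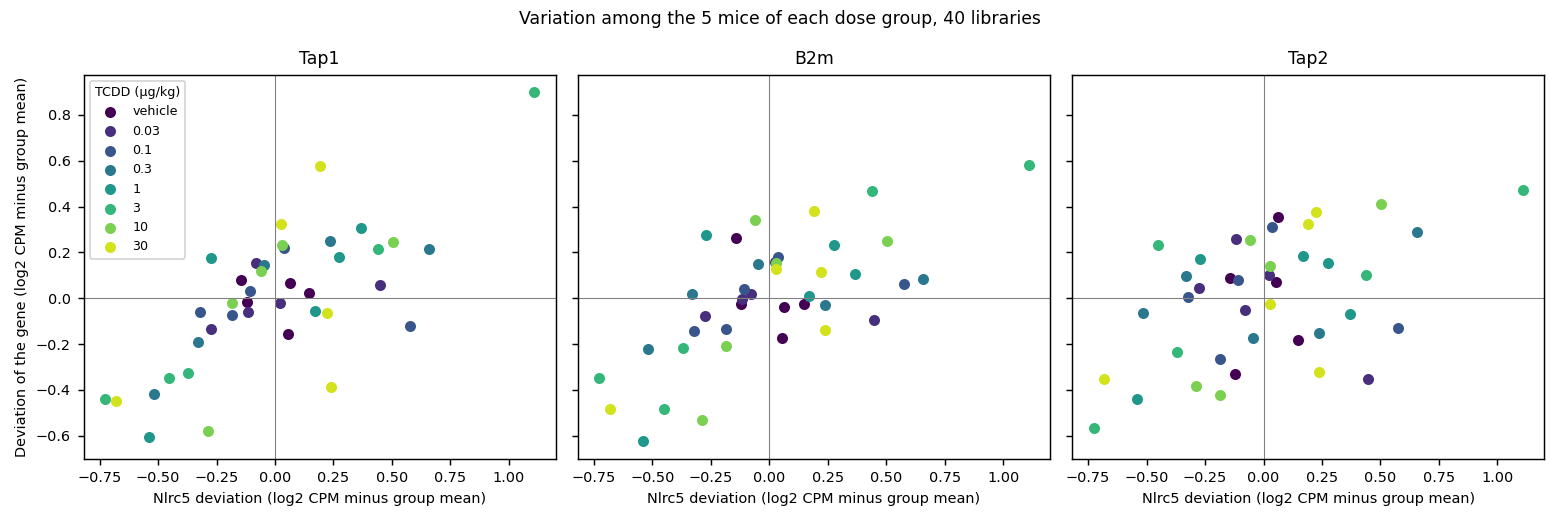
Deviation of Tap1, B2m and Tap2 from their dose group's mean (log2 CPM) against the same deviation of Nlrc5, with 1 point per library coloured by dose (40 libraries). Replicate 5 at 3 µg/kg lies at the far upper right of each panel, and the points are more scattered for Tap2 (r = 0.470) than for Tap1 (r = 0.722).

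Other genes of the class I system were taken from fixed lists. Beside the counts below, 0.507% of all genes were called higher at 1 µg/kg, 3.82% at 10 and 8.39% at 30 µg/kg. The shares called lower were 0.997% at 10 and 7.55% at 30 µg/kg. Of 17 other class I and class I-like genes 14 were tested, of which 4 rose at 1 µg/kg, 6 at 10 and 8 at 30 µg/kg, and 0 fell, with a median log2 fold change of 0.38, 0.47 and 0.75. At 30 µg/kg H2-Q4 rose by 1.20 ± 0.17 (edgeR adjusted p = 2.51e-06), H2-Q6 by 1.16 ± 0.18 (adjusted p = 6.28e-06), H2-T10 by 1.14 ± 0.38 (adjusted p = 0.0293) and H2-Q7 by 1.09 ± 0.17 (adjusted p = 1.38e-05) on the log2 scale. These encode non-classical class I heavy chains. H2-Q and H2-T genes are close copies of one another, so reads can be split among them or lost as mapping to several places, and their single values are uncertain. For the members, 1.35% of the 150-base windows of H2-D1 transcripts also occur in another gene (H2-Q1), and 0% for the other 9.

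Of 16 genes for the transcription of class I genes, 6 were higher at 1 µg/kg, 8 at 10 and 6 at 30 µg/kg, and 1 was lower at 30 µg/kg (Nfya, a subunit of the factor that binds CCAAT boxes, -0.31 ± 0.10, edgeR adjusted p = 0.0267; 7.55% of all genes were lower at 30 µg/kg). Irf1, an interferon-induced activator, had 12.1 ± 1.27 CPM in vehicle and 28.4 ± 6.30 at 1 µg/kg (SD, n = 5), a log2 fold change of 1.23 ± 0.18 (adjusted p = 3.52e-05). Ciita, the class II counterpart of Nlrc5, had 4.06 ± 0.617 CPM in vehicle and 10.5 ± 2.67 at that dose, a log2 fold change of 1.36 ± 0.28 (adjusted p = 0.00495). In both the 5 libraries at 1 µg/kg were above all of vehicle. Irf8, a factor of myeloid cells, rose by 0.67 ± 0.13 at 1 µg/kg (adjusted p = 0.00391) and by 0.39 ± 0.13 at 30 µg/kg (adjusted p = 0.0381).

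Of 9 genes for peptide loading and trimming, 0 passed at 1 µg/kg (3 at an unadjusted p under 0.05; 0 with DESeq2), 2 rose at 10 µg/kg and 2 fell at 30 µg/kg. The 2 that rose were Erap1, the aminopeptidase that trims class I peptides (0.58 ± 0.12, edgeR adjusted p = 0.00163), and Tapbpl, a tapasin-related peptide editor (0.54 ± 0.14, adjusted p = 0.0163). The 2 that fell at 30 µg/kg were the chaperones Calr, by 0.26 ± 0.07 (adjusted p = 0.0125), and Pdia3, by 0.25 ± 0.07 (adjusted p = 0.0134). Over dose rank 2 of the 9 rose and 4 fell, against 11% and 8.84% of all genes, and Hspa5, a chaperone of the endoplasmic reticulum, had the steepest falling slope of them (-0.07 ± 0.02 per rank, adjusted p = 0.00729). Of 8 genes for the proteasome activator PA28 and for assembly, 0 passed at 1 µg/kg with edgeR (3 at an unadjusted p under 0.05; 1 with DESeq2). The interferon-inducible activator subunits Psme1 (0.40 ± 0.10, adjusted p = 0.00547) and Psme2 (0.51 ± 0.10, adjusted p = 0.00036) rose at 10 µg/kg. At 30 µg/kg Psme3 (-0.27 ± 0.06, adjusted p = 0.00163) and Psmg2 (-0.33 ± 0.11, adjusted p = 0.0252) fell. Of 11 other subunits of the 20S proteasome core 0 passed at 1 or 10 µg/kg with edgeR (1 and 0 at an unadjusted p under 0.05; 0 with DESeq2), and Psma3 (-0.21 ± 0.06, adjusted p = 0.0149) and Psma4 (-0.26 ± 0.08, adjusted p = 0.0209) fell at 30 µg/kg.

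**Figure D5:**
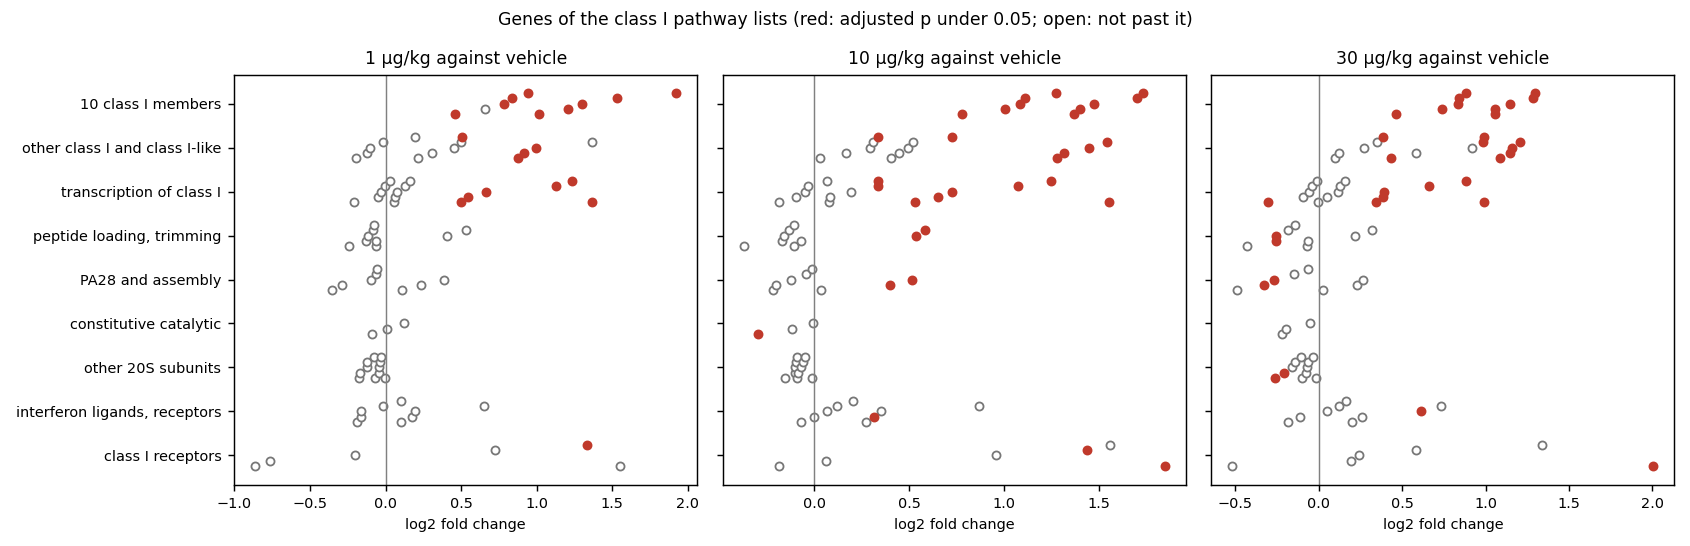
Log2 fold change against vehicle at 1, 10 and 30 µg/kg of each tested gene of 9 lists (rows), red where the edgeR adjusted p was under 0.05 and open where it was not. The 10 members lie at 0.46 to 1.92 at 1 µg/kg, while the 11 other 20S subunits lie at -0.18 to 0.00.

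The interferon transcripts looked up, those of Ifng, Ifnb1, Ifnl2 and Ifnl3, were at or near 0. Interferon alpha genes were not on the list. Ifng, which encodes interferon gamma, had 0 counts in all 5 vehicle libraries and at most 7 counts in any of the 40, and Ifnb1 had at most 2. A count of 0 allows up to 3 counts in a library, for counting error only. Ifnl2 and Ifnl3 were at 0 in all 40. None of these interferon genes passed the filter, and the 9 other genes of this list were 5 receptor chains, the kinases Jak1, Jak2 and Tyk2, and Socs1. Of these 9, 0 passed at 1 µg/kg with edgeR (2 at an unadjusted p under 0.05 and 0 with DESeq2). At 10 and at 30 µg/kg 1 passed, where 3.82% and 8.39% of all genes were higher. The count at 30 µg/kg is near that share and is not read as a change of the list. The 1 gene was Ifngr1, a chain of the interferon gamma receptor, which rose by 0.31 ± 0.09 at 10 µg/kg (edgeR adjusted p = 0.033) and by 0.61 ± 0.09 at 30 µg/kg (adjusted p = 3.48e-06). Socs1, a feedback inhibitor of interferon signalling, rose by 0.20 ± 0.05 per dose rank (adjusted p = 0.00138).

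On the side of the cells that read class I, 6 of 11 receptor genes were tested. Of all genes, 0.507% were called higher at 1 µg/kg, 3.82% at 10, 8.39% at 30 µg/kg and 11% over dose rank. The genes named here are single genes and are not read as a change of the list. Pirb, an inhibitory class I receptor of myeloid and B cells, rose by 1.34 ± 0.30 at 1 µg/kg (edgeR adjusted p = 0.0149), 1.84 ± 0.30 at 10 (adjusted p = 2.31e-05) and 2.01 ± 0.30 at 30 µg/kg (adjusted p = 3.27e-06). Lilrb4a, a related inhibitory receptor whose binding of class I was not examined here, rose by 1.43 ± 0.44 at 10 µg/kg (edgeR adjusted p = 0.0452). Klrd1, the CD94 chain of natural killer cell receptors, rose by 0.28 ± 0.08 per dose rank (adjusted p = 0.0087). Cd8a, the coreceptor of cytotoxic T cells, had 3.13 ± 0.919 CPM in vehicle, 2.72 ± 0.777 at 1 µg/kg and 2.18 ± 0.551 at 30 µg/kg (SD, n = 5) and passed at none of the 7 doses.

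Markers of the cell types in the tissue were counted beside these changes. Of all genes, 0.507% were called higher at 1 µg/kg, 1.03% at 3, 3.82% at 10 and 8.39% at 30 µg/kg. Called lower were 0.997% at 10 µg/kg and 7.55% at 30 µg/kg, and over dose rank 11% rose and 8.84% fell. At 30 µg/kg and over dose rank, counts of 1 or 2 genes are not read as a change of a list. The 10 genes of the proximal tubule, the main cell type of kidney cortex, summed to 29076 to 39711 CPM in vehicle, to 27418 to 33529 at 10 µg/kg and to 16026 to 30149 at 30 µg/kg, where 6 of the 10 fell and 1 rose. Of the 5 leukocyte genes, 1 rose at 1 µg/kg and 5 at 3, at 10 and at 30 µg/kg, with median log2 fold changes of 0.69, 0.84, 1.05 and 0.82, and their sum ran from 31.0 to 38.3 CPM in vehicle, 40.0 to 60.2 at 1 and 64.9 to 72.8 at 10 µg/kg. Of 12 macrophage and monocyte genes 2 rose at 1 µg/kg, 7 at 10 and 8 at 30 µg/kg, and their sum ran from 96.4 to 156 CPM in vehicle and 219 to 268 at 10 µg/kg. Of 9 T cell genes 0 passed at 1, 10 or 30 µg/kg with edgeR (0, 2 and 1 at an unadjusted p under 0.05; 0, 1 and 0 with DESeq2), with sums of 3.69 to 5.78 CPM in vehicle and 4.64 to 9.39 at 1 µg/kg. Of 8 natural killer and cytotoxic granule genes 5 were tested and 0 passed at these doses (1, 3 and 0 at an unadjusted p under 0.05; 0 with DESeq2), with sums of 1.02 to 2.63 CPM in vehicle and 3.19 to 6.32 at 10 µg/kg. Over dose rank 2 of the 9 T cell genes and 3 of the 5 natural killer genes rose with edgeR (3 and 3 with DESeq2). Of 5 dendritic cell genes tested 0 passed at 1 µg/kg (2 at an unadjusted p under 0.05; 0 with DESeq2) and 3 rose at 10 µg/kg, with sums of 12.8 to 18.6 CPM in vehicle and, at 10 µg/kg, of 23.5 to 28.4 CPM. Of 9 endothelial genes 0 passed at 1 µg/kg (2 at an unadjusted p under 0.05; 0 with DESeq2) and 7 rose at 10 and at 30 µg/kg, with sums of 563 to 635 CPM in vehicle and 741 to 830 at 10 µg/kg. Of 6 B cell genes 0 passed at 1 or 10 µg/kg or over dose rank with edgeR (0, 0 and 1 at an unadjusted p under 0.05; 0 with DESeq2). Only 2 of 6 neutrophil genes were tested, and 1 of these rose over dose rank. Of 5 podocyte genes 4 rose at 10 µg/kg and 3 at 30 µg/kg, and of 6 collecting duct genes 4 fell at 10 µg/kg and 3 at 30 µg/kg. Of 6 genes of the thick ascending limb and distal tubule 3 fell at 10 µg/kg and 2 at 30 µg/kg. Fat genes (1 of 5 higher and 1 lower at 30 µg/kg) summed to 32.3 to 90.2 CPM in vehicle and to 104 to 249 CPM at 30 µg/kg. Other than 1 neutrophil gene, no gene of these lists was at 0 in all libraries. In bulk tissue more cells of a type and more RNA per cell cannot be told apart, and the part of these cells in the changes of the class I genes was not tested.

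Pattern likeness over the 40 libraries was measured for all other genes. The measure was Pearson's r between a gene's log2 CPM and the mean of the members' standardised log2 CPM, given as a description, since all libraries share the dose design. The 10 most alike were H2-Ab1 (0.988), Cd74 (0.987), H2-Q4 (0.970), H2-Eb1 (0.966), H2-Aa (0.965), H2-DMb1 (0.962), H2-DMa (0.947), Ifi47 (0.946), Gbp2 (0.946) and Parp14 (0.945). With the dose groups' means removed, H2-Ab1 and Cd74 were at 0.952 and 0.943, and Gbp2 at 0.694. H2-Ab1, a class II beta chain, rose by 1.71 at 1 µg/kg (edgeR adjusted p = 0.000374) and 1.42 at 30 µg/kg (adjusted p = 0.000304) on the log2 scale, and Cd74, the invariant chain of class II, by 1.55 (adjusted p = 0.00212) and 1.43 (adjusted p = 0.000455). Gbp2, an interferon-induced GTPase, rose by 1.41 at 1 µg/kg (adjusted p = 7.02e-06) and 1.28 at 30 µg/kg (adjusted p = 2.57e-06). Among the members themselves, r with the mean of the other 9 ran from 0.897 for Tap2 to 0.970 for H2-K1.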

How the data were processed

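Total RNA of 40 right kidneys (TRIzol, paired 150-base reads, per the labels' protocols) had been processed with FastQC 0.11.7, Trimmomatic 0.39 and STAR 2.7.3a, per the submitters' processing notes. These name both mm10 and GRCm39, so the build behind the counts is not settled here. The authors deposited read counts per gene and library, unstranded and for each strand. The unstranded counts were used. Rows that name no gene were left out (6.98 to 9.70% of reads mapped to several places). A whole-series table of log-like values was not used. Of 55359 identifiers, 52083 were named with GENCODE M21. Groups came from the labels, and the 5 libraries of a group are 5 mice.

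Computed here: edgeR 4.0.16 in R 4.3.3 (filterByExpr, 17345 genes; TMM factors 0.966 to 1.09; quasi-likelihood test on all 40 libraries; Benjamini-Hochberg threshold 0.05), with contrasts of each dose against vehicle, of neighbouring doses and of dose rank. Fold changes used edgeR's default prior count, log2 CPM a prior count of 2 and ratios 0.5 added to each count. The biological coefficient of variation was 17.1%. The fits were tested on simulated data. No replicate pair of 80 agreed within sampling noise (chi-square per degree of freedom 7.34 to 87.9). Exact permutation tests served ratios, and 100000 permutations within groups the relation to Nlrc5. Alternatives were other scaling, filters, count columns, libraries and DESeq2 1.42.0. Members and lists were chosen with earlier results of these data known. The text names the members, fixed controls, at most 4 genes per list and direction by size at 30 µg/kg, and the 10 genes most alike. One fixed control is not reported here.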

Additional observations from a re-analysis of the deposited data

Results flagged for a closer look

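In 80 sets of 5 libraries (10 members at 8 doses), 5 held a value set apart from the other 4 by more than Dixon's 95% limit (a gap above 0.71 of the range), where chance gives about 1 in 20, or 4 of 80. At 30 µg/kg replicate 3 was low for Psmb8 (5.22 CPM, next 9.32) and for Nlrc5 (6.92 CPM, next 11.4). At 0.1 µg/kg replicate 1 was high for H2-D1 (294.5 CPM, next 239.9) and for Psmb8 (5.28 CPM, next 3.51). Vehicle replicate 1 was low for Psmb9 (3.86 CPM, next 4.67). The summed leukocyte genes were also at their group's lowest, 39.6 CPM, in the first of these libraries and at their group's highest, 43.6 CPM, in replicate 1 of 0.1 µg/kg, whereas vehicle replicate 1, low for Psmb9, had the highest sum of its group, 38.3 CPM.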

How the results depend on the processing

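With size factors of DESeq2, other filters, either stranded column, a term for the 2 runs of title numbers, DESeq2 itself or 1 library left out, the members called against vehicle stayed within 1.5 times the reported count at each dose; with only the groups compared, 6 of 10 were called at 3 µg/kg. From 0.3 to 1 µg/kg, leaving out 1 library gave 2.0 to 8.0 members. From 10 to 30 µg/kg, 1.0 member was called with no filter, with the title-run term and with DESeq2, and 0.0 to 1.0 with 1 library left out. With the first stranded column (column 3 of the counts), the log2 ratio of Psmb9 to Psmb6 at 30 µg/kg was 0.847 (adjusted p = 0.104) and that of Psmb10 to Psmb7 0.661 (adjusted p = 0.0684), both no longer past the threshold, and the heavy chains to B2m at 0.1 µg/kg gave 0.186 (adjusted p = 0.0404). Leaving out 1 library gave 0.165 to 0.356 for Psmb9 to Psmb6 at 0.03 µg/kg and 0.936 to 1.20 at 30 µg/kg, and for the heavy chains to B2m 0.104 to 0.221 at 0.1 µg/kg and -0.308 to -0.184 at 10 µg/kg. The value of 0.356, without replicate 5 at 0.03 µg/kg, passed the threshold (exact permutation test, adjusted p = 0.0171). In titles 1 to 27, r with Nlrc5 rose to 0.768 for H2-D1 and 0.775 for Psmb10. The cause of these shifts was not tested. No called value changed sign. The heavy chains to B2m at 0.3 µg/kg, not called, went from 0.0452 to -0.0346 without vehicle replicate 1.

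Over all genes, counts of calls against vehicle at 30 µg/kg (2766) and 3 µg/kg (189) were 969 and 113 with only the groups compared, and 119 at 3 µg/kg without its replicate 5. DESeq2 called 6 genes at 0.03 µg/kg, 2 at 0.3 µg/kg, 4 from 0.03 to 0.1 µg/kg, 57 from 0.3 to 1 µg/kg (37 with edgeR, and 10 to 24 with 1 of 7 libraries left out) and 70 from 3 to 10 µg/kg (19). For the last step the stranded columns gave 12 and 29, and the groups compared alone 149. From 10 to 30 µg/kg (469) the groups compared alone gave 0, and leaving out a library 146 to 1194. The trend called 1399 genes without the 30 µg/kg group (3439 with it). Psmb8 and Tapbp missed the threshold at 1 µg/kg in the second stranded column (adjusted p = 0.0794 and 0.0518). No paired analysis was possible because the labels give no replicate numbers that link mice of different doses. With 5 mice a group, the values cover only these mice, and reads carry no molecular identifiers. The SE of an edgeR fold change rests on a spread estimated over all 40 libraries, and it does not follow the spread of single groups. For H2-K1 the SE against vehicle was 0.19 at both 0.3 and 30 µg/kg. The coefficient of variation of its 5 libraries was 5.76% at 0.3 and 38.0% at 30 µg/kg.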
